A study of Mus musculus with 5 samples.

Results

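The genes studied here were 9 Sox genes with known roles in neural development: *Sox2* (SoxB1 group), *Sox21* (SoxB2), *Sox4* and *Sox11* (SoxC), *Sox5* and *Sox6* (SoxD), and *Sox8*, *Sox9* and *Sox10* (SoxE). They were taken by name from the 22284 protein-coding genes of the NCBIM37 (mm9) annotation, and each *Paupar* CHART-Seq peak was tied to a gene when the midpoint of the peak fell in the regulatory domain of that gene. A domain is the interval that begins 5 kb before and ends 1 kb after the start of a gene, lengthened on each side until it meets the same interval of the next protein-coding gene, but never by more than 1 Mb. Of the 2849 peaks, 15 lay in the domains of 5 of the 9 genes: 6 at *Sox11*, 4 at *Sox9*, 2 at *Sox2*, 2 at *Sox4* and 1 at *Sox5*. The domains of *Sox6*, *Sox8*, *Sox10* and *Sox21* held none.

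CHART-Seq (capture hybridisation analysis of RNA targets) recovers an RNA from crosslinked cells with complementary oligonucleotides and sequences the DNA attached to it. The study asked where the long non-coding RNA *Paupar* is bound in N2A cells, a mouse neuroblastoma line with no added treatment or genotype in the labels. It used 2 *Paupar* pull-downs, 2 pull-downs with an oligonucleotide to bacterial *LacZ* and 1 library of input DNA. The deposited list gives a position and a score per peak and holds no value per library. There is thus no replicate error, the depth is unknown and no test between pull-downs could be made. All intervals given below cover counting error only.

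SOX proteins are transcription factors that bind the minor groove of DNA through a high-mobility-group box, and they are grouped by the similarity of that box. SoxB1 factors maintain neural progenitors, SoxB2 factors counteract them, SoxC factors act in newly formed neurons, SoxD factors lack a transactivation domain of their own and modulate other SOX proteins, and SoxE factors drive glial and neural crest fates. Several Sox genes stand alone in long stretches without other coding genes, which hold distal enhancers.

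The sequences recovered near the Sox genes are shown first for the peaks that stand out by their score or by lying closest to a gene start. Each is the central 200 bp of a peak, on the plus strand of mm9, with CG dinucleotides in capitals. The peak with the highest score, 176681 bp downstream of *Sox11* (chr12:27850793-27850992), and the peak closest to any of the 9 starts, 2133 bp upstream of *Sox9* (chr11:112641305-112641504), each held 6 CG dinucleotides.
*Sox11*, 176681 bp downstream: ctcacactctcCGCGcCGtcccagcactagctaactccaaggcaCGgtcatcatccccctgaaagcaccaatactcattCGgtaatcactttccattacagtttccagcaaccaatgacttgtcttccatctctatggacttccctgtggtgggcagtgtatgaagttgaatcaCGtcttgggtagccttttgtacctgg
*Sox9*, 2133 bp upstream: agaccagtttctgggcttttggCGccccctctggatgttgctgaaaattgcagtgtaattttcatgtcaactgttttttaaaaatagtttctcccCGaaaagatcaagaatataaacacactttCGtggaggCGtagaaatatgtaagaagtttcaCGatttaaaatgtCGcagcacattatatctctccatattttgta

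The peaks closest to the starts of *Sox11* (chr12:28067389-28067588), *Sox4* (chr13:29002106-29002305) and *Sox5* (chr6:144964858-144965057), and the peak downstream of *Sox2* that the study followed with primers (chr3:35125467-35125666), held 1, 1, 0 and 1 CG dinucleotides in the same window.
*Sox11*, 39915 bp upstream: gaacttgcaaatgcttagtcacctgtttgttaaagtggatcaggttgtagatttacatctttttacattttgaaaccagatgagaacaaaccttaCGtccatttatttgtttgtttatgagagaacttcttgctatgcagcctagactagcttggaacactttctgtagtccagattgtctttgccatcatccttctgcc
*Sox4*, 43376 bp downstream: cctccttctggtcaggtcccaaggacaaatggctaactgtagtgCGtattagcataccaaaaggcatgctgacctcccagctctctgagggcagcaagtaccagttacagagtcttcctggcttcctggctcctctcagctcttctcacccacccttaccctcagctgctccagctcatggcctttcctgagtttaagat
*Sox5*, 234461 bp upstream: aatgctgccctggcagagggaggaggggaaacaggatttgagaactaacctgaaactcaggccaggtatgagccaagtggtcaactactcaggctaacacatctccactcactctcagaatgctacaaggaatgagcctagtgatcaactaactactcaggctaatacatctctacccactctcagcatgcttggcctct
*Sox2*, 576640 bp downstream: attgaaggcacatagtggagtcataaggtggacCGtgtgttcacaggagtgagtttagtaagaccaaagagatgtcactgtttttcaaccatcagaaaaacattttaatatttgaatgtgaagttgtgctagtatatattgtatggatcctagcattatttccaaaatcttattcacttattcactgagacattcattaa

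A peak upstream of *Sox2* (chr3:34135009-34135208) and a peak downstream of *Sox11* (chr12:27852744-27852943) held tandem repeats at their centre. Capitals mark the 12-mer that occurs most often in each window, 8 times at *Sox2* and 4 times at *Sox11*.
*Sox2*, 413818 bp upstream: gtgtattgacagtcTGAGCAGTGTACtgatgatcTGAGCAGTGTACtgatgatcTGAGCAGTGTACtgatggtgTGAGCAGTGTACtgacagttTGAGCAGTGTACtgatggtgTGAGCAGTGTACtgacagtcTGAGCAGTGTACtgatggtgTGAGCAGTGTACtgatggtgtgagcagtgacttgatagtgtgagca
*Sox11*, 174730 bp downstream: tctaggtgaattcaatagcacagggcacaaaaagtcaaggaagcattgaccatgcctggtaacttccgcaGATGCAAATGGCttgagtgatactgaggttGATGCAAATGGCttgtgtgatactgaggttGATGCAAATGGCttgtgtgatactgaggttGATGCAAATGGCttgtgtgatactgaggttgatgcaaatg

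At *Sox11* (ENSMUSG00000063632), 3 peaks lay downstream of the gene and 3 upstream, all in intergenic sequence. *Sox11* encodes a factor of newborn neurons, and its domain of 1182.3 kb reached from the gene model *Gm9866* to the 1 Mb limit short of *Dcdc2c*, which encodes a protein with doublecortin domains. The downstream peak at chr12:27850467-27851319 had a score of 45.27, rank 94 of the 2849 peaks and the highest of the 15. Its neighbours at chr12:27852145-27853542 and chr12:27856578-27856908 had scores of 14.96 and 6.6. The upstream peaks lay 39915, 137867 and 317849 bp from the start, with scores of 7.56, 10.82 and 9.2. Scores thus were uneven along the domain, with the strongest peak near its downstream border and no upstream peak above 10.82.

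The downstream peaks of *Sox11* belonged to a group that the border of the domain divided. A further peak at chr12:27849363-27850277, 915 bp wide, had a score of 53.38 (rank 65), ended 33 bp outside the border and was therefore not counted for *Sox11*. It lay 189 bp from the strongest *Sox11* peak, and the 4 peaks together spanned 7546 bp, with scores that fell from 53.38 over 45.27 and 14.96 to 6.6 towards *Sox11*. In the whole list, 3 places held 4 peaks within so short a span, this one included. The nearest annotated protein-coding start to all 4 was that of *Gm9866*, 4509 bp from the midpoint of the outermost peak. RefSeq lists *Gm9866* as a long non-coding RNA.

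**Figure D1:**
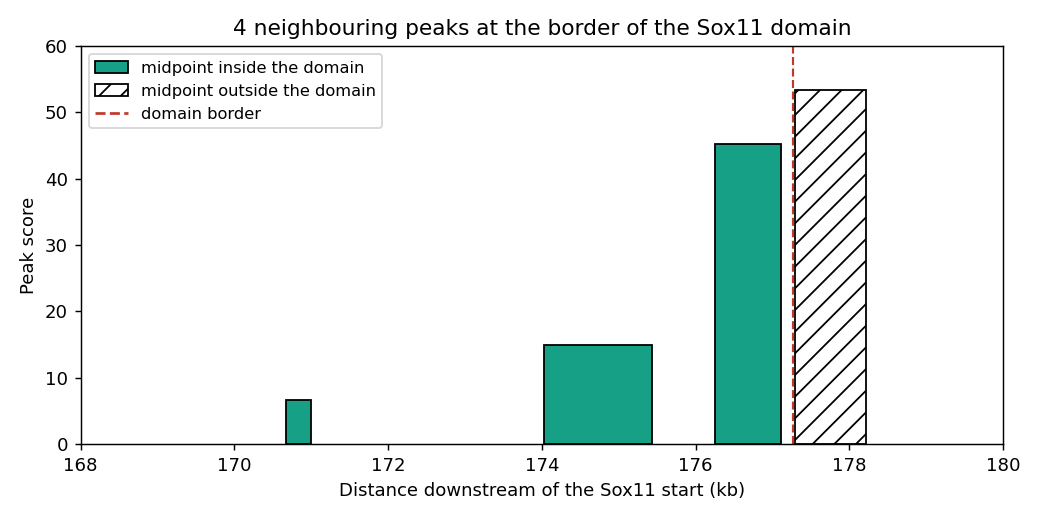
Score of each peak (y axis) against its distance downstream of the *Sox11* start in kb (x axis), drawn at its true width for the 4 neighbouring peaks at the downstream border of the domain. Filled bars have their midpoint inside the domain, the hatched bar outside, and the dashed line is the border; scores fell from 53.38 to 6.6 in the direction of the gene.

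At *Sox9* (ENSMUSG00000000567), which encodes a regulator of gliogenesis, cartilage and sex determination, 4 peaks were spread over a domain of 1177.7 kb. The peak at chr11:112640903-112641906, 1004 bp wide with a score of 20.03 (rank 620), had its midpoint 2133 bp upstream of the start. It lay in an intron of *BC006965*, a long intergenic non-coding RNA, and was the only one of the 15 peaks within 5 kb of the start of its gene. Within 5 kb of the nearest protein-coding start lay 6.67% of the Sox peaks (1.19 to 29.8), an interval that includes the 16.1% of all peaks. A peak 239277 bp upstream (chr11:112403987-112404535) had the highest score at *Sox9*, 32.78 (rank 215). Downstream, the scores were 17.55 at 243961 bp (chr11:112886769-112888228) and 13.07 at 705345 bp (chr11:113348611-113349154). The last lay in an intron of *Slc39a11*, which encodes a zinc transporter, and its nearest coding start was that of *Sstr2*, a somatostatin receptor gene. All 4 scores at *Sox9* were above the median of 12.69 over all peaks, which held for 2 of the 6 peaks at *Sox11*.

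At *Sox2* (ENSMUSG00000074637), the SoxB1 gene of pluripotent cells and neural progenitors, both peaks lay far from the gene in a domain of 1564.7 kb. The upstream peak at chr3:34134647-34135571 was in an intron of the lincRNA gene *Sox2ot*, which overlaps *Sox2*, and touched none of its exons. The downstream peak at chr3:35123981-35127152 was intergenic, had a score of 34.59 (rank 179) and, at 3172 bp, was the widest of the 15. Each of them also fell in the domain of a neighbour: *Dnajc19*, which encodes a subunit of the mitochondrial import motor, upstream, and *Atp11b*, a phospholipid transporter gene, downstream. The starts of these neighbours, 154866 and 527489 bp away, were closer to the peaks than the start of *Sox2*. Primers of the study matched both peaks: products of 144 bp (chr3:34135231-34135374) and 72 bp (chr3:35124429-35124500) lay entirely within them. Another pair gave a product of 968 bp that covered 98.5% of the upstream peak. The paper reports that a *Sox2* binding site repressed a promoter in a luciferase assay, and less so after *Paupar* knockdown. It also states that *Sox2* expression was undetectable in N2A cells.

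At *Sox4* (ENSMUSG00000076431), the other SoxC gene with a peak, the domain was the longest of the 9, 1711.2 kb from *Prl5a1*, a gene of the prolactin family, to *Cdkal1*, a tRNA-modifying enzyme gene. It held an intergenic peak 43376 bp downstream (chr13:29002062-29002349) with a score of 6.92 (rank 2737) and another 498303 bp downstream (chr13:28546757-28547801) with a score of 10.61 (rank 1836). Both scores were below the median of all peaks. At *Sox5* (ENSMUSG00000041540), a SoxD gene of 953553 bp, no peak lay in the gene body, and the single peak at chr6:144964780-144965135, with a score of 12.14, lay 234461 bp upstream in an intron of *Bcat1*. *Bcat1* encodes the cytosolic branched-chain aminotransferase, and its own start was closer, at 59746 bp.

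**Figure D2:**
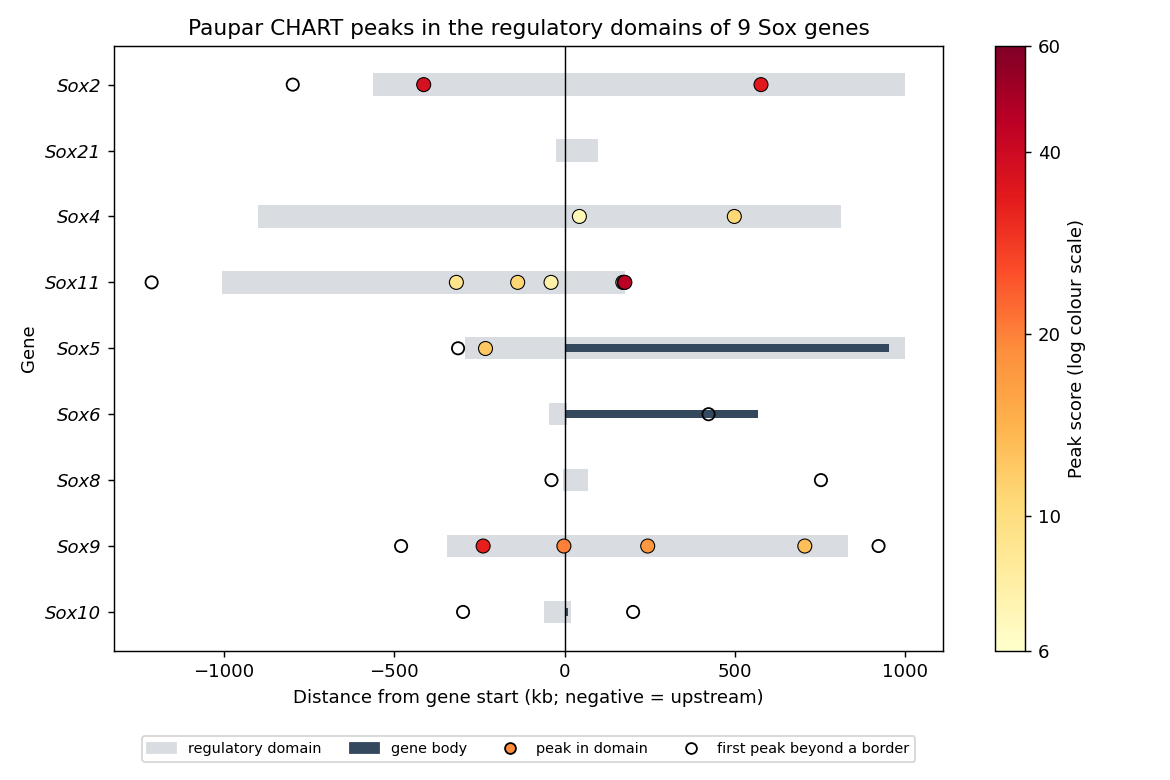
Position of each peak relative to the gene start in kb (x axis, negative upstream) for the 9 Sox genes (y axis), with the regulatory domain in grey, the gene body in dark blue and the peak score as colour on a log scale. Open circles are the first peak beyond each border where it lies within 1.3 Mb, and the 3 downstream peaks of *Sox11* overlap at this scale with the border peak behind them. Filled circles occur at 5 genes only, and 1 of 15 lies within 5 kb of a start, against 16.1% of all peaks within 5 kb of the nearest coding start.

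The 4 genes without a peak differed in how far away the closest one was. For *Sox8* (ENSMUSG00000024176), a SoxE gene, a peak at chr17:25745955-25746596 with a score of 8.89 lay 38645 bp upstream, past the start of *Lmf1*, which encodes a lipase maturation factor. For *Sox10* (ENSMUSG00000033006), the SoxE gene of oligodendrocytes and Schwann cells, the closest peak was 201144 bp downstream. For *Sox21* (ENSMUSG00000061517), the SoxB2 gene, no peak lay within 1 Mb of the start. *Sox6* (ENSMUSG00000051910) spans 567401 bp and had a peak with a score of 17.17 in its own gene body, at chr7:122759307-122759931 and 422639 bp downstream of its start. That peak was not counted, because the gene model *1110006G14Rik* starts inside *Sox6* and ended its domain there, which left 50.6 kb up to *Gm4353* on the other side. RefSeq lists *1110006G14Rik* as *Sox6os*, a long non-coding RNA, and *Gm4353* as a pseudogene.

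The genes with peaks were those with long domains. The domains of *Sox2*, *Sox4*, *Sox5*, *Sox9* and *Sox11* were between 1177.7 and 1711.2 kb long, those of the other 4 genes between 50.6 and 124.0 kb, and no length fell between. Of the 9 genes, 5 (55.6%, 95% Wilson interval 26.7 to 81.1) had a peak, against 16.5% of all 22284 protein-coding genes, whose domains had a median length of 89.8 kb. Among the 983 genes with a domain of at least 1 Mb, 38.0% had a peak, against 5 of 5 Sox genes of that length (56.6 to 100). Among the 14697 genes with a domain under 150 kb, 9.25% had a peak, against 0 of 4 Sox genes (interval up to 49.0), so the absence of a peak from these 4 was what most genes with domains of that size showed.

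Per length, the 9 Sox domains held 2.07 peaks per Mb (15 peaks in 7.26 Mb, 95% exact Poisson interval 1.16 to 3.41), against 1.17 per Mb over all domains. The 5 long Sox domains held 2.16 per Mb (1.21 to 3.57), and all domains of at least 1 Mb held 0.539 (0.5 to 0.581). Single genes differed: 10 of the 15 peaks were at *Sox11* (5.08 per Mb, 1.86 to 11.0) and *Sox9* (3.40 per Mb, 0.925 to 8.70), whose intervals lie above the rate of long domains, that of *Sox9* including the rate over all domains. All these intervals count neighbouring peaks as independent. Merging peaks within 10 kb left 4 at *Sox11*, as many as at *Sox9*, so the difference between these 2 genes rests on the group of neighbouring *Sox11* peaks. *Sox2*, *Sox4* and *Sox5*, at 1.28, 1.17 and 0.773 per Mb, had intervals that include both rates. Of all genes, 25 (0.112%) had at least 6 peaks like *Sox11*, 137 (0.615%) at least 4 like *Sox9*, and 988 (4.43%) at least 2 like *Sox2* and *Sox4*. Among genes with domains of at least 1 Mb these shares were 0.916%, 3.66% and 17.6%. Domains of neighbours overlap, so a peak can count for more than 1 gene.

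**Figure D3:**
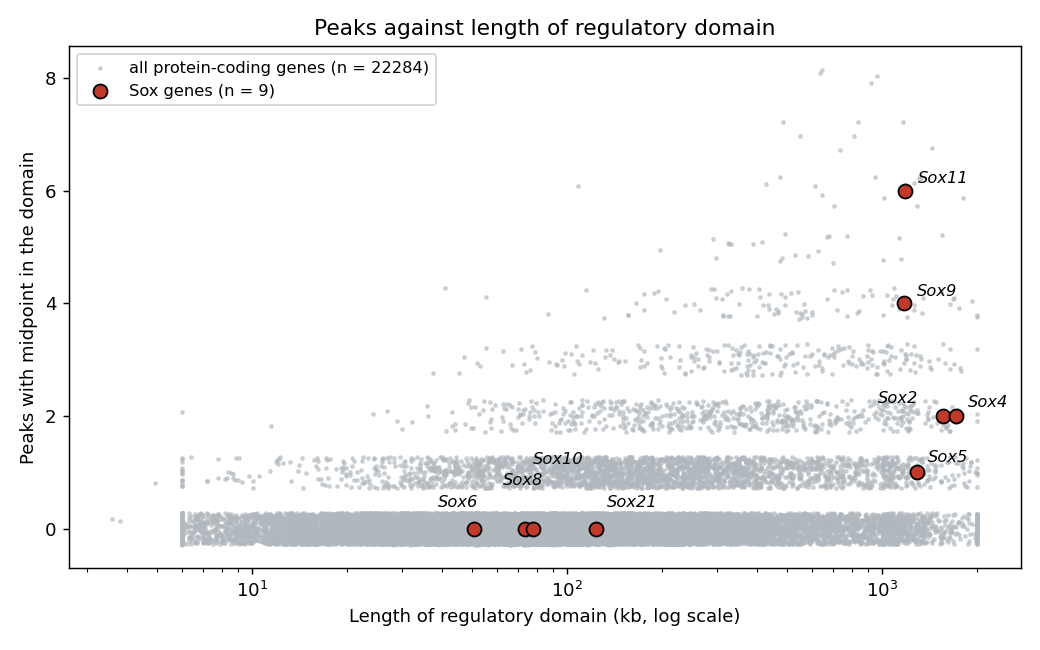
Number of peaks (y axis) against the length of the regulatory domain in kb (x axis, log scale) for all 22284 protein-coding genes in grey, with vertical scatter added, and the 9 Sox genes in red at their exact values. The Sox genes form 2 sets, 4 under 150 kb at 0 peaks and 5 above 1 Mb with 1 to 6 peaks, *Sox11* being the highest.

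Most peaks counted in the Sox domains lay far from the gene starts. The median distance from the start of the gene to its peaks was 234461 bp, 12 of 15 peaks lay more than 100 kb away, and 7 lay upstream. From the nearest protein-coding start, 53.3% of Sox peaks (30.1 to 75.2) lay over 100 kb away, against 22.3% of all peaks. All these distances are tied to the length of the domains, because the peaks were collected from domains of 1177.7 to 1711.2 kb. With extension by at most 100 kb, the median distance from the start of the gene was 39915 bp, over 3 peaks. No such distances were computed for the peaks of other long domains, so they cannot show whether the Sox peaks were unusually distal. A Sox gene had the nearest protein-coding start for 6 of the 15 peaks: the 3 upstream peaks of *Sox11*, the peaks 2133 bp upstream and 243961 bp downstream of *Sox9*, and the nearer peak of *Sox4*. The domain of another gene held 12 of the 15 as well. The exceptions were the peak beside *Sox9* and the *Sox11* peaks 39915 and 137867 bp upstream. Of the 15, 11 were intergenic and 4 intronic, with no peak midpoint in an exon.

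In size, the Sox peaks ranged from 288 to 3172 bp, and their median width was 853 bp against 556 bp over all peaks. Of them, 6 (40%, 19.8 to 64.3) were wider than 1 kb, against 17.8% of all peaks. Their scores had a median of 13.07 against 12.69, and 11 of 15 scores (73.3%) reached 10, against 70.7% of all peaks. The Sox peaks therefore were spread over the range of scores, from rank 94 to rank 2783.

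**Figure D4:**
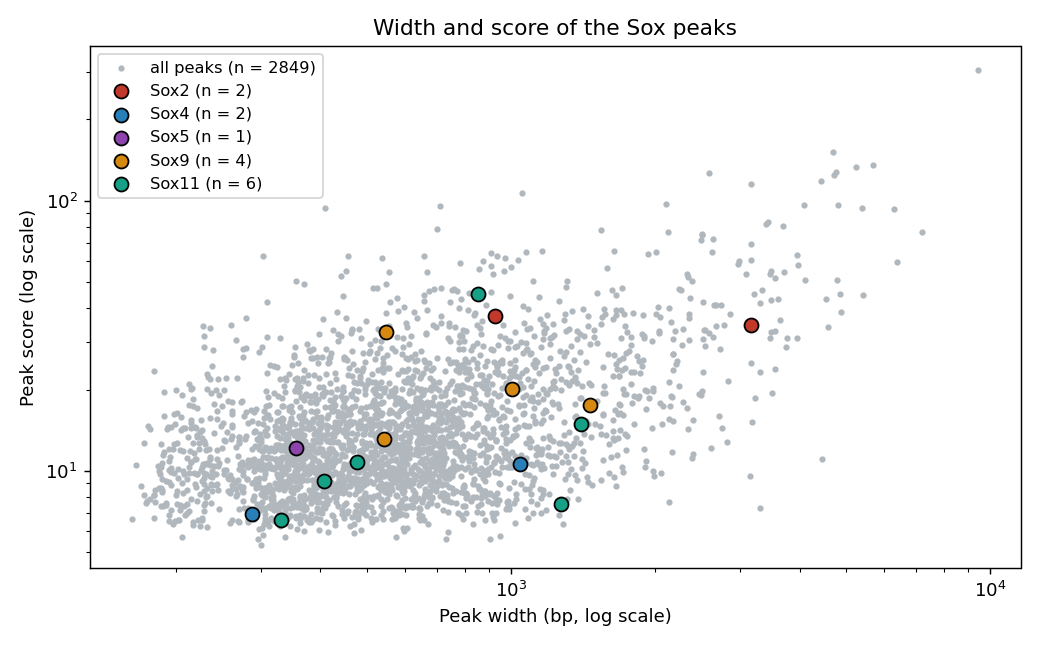
Score (y axis, log scale) against width in bp (x axis, log scale) of all 2849 peaks in grey and of the 15 Sox peaks coloured by gene. The Sox peaks lie within the cloud, at 288 to 3172 bp and scores from 6.6 to 45.27, with both *Sox2* peaks above 34 and both *Sox4* peaks below 11.

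In base composition, the Sox peaks had a median GC content of 45.5%, against 48.1% over all peaks. The ratio of observed to expected CG dinucleotides had a median of 0.192 against 0.179, and was highest beside *Sox9*, at 0.517 in the peak 2133 bp upstream. Repetition was measured as the highest share of positions in the central 200 bp whose base recurs at a fixed lag of 5 to 100 bp. At the upstream *Sox2* peak 88.8% of positions recurred at a lag of 40 bp, a value reached by 52 of the 2849 peaks (1.83%). At the *Sox11* peak 174730 bp downstream 68.8% recurred at 30 bp. The other 13 Sox peaks had values from 33.7% to 42.1%, around the median of 35.9% over all peaks. A value of at least 60%, a limit set after these values were seen, was thus found in 2 of 15 Sox peaks and in 6.32% of all peaks. The effect of repeats on the mapping of reads at these peaks was not tested.

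A SOX core site, ACAAAG or ACAATG on either strand, was present in the central 200 bp of 4 of 15 Sox peaks (26.7%, 10.9 to 52.0), against 24.6% of all peaks. The 4 were a pair at *Sox9* (chr11:112404234-112404279 and chr11:112887496-112887541, the latter on the minus strand) and a pair at *Sox11* (chr12:27856699-27856744 on the minus strand and chr12:28345470-28345515). They are shown 5′ to 3′ with the core in capitals and 20 bp on each side. Neither *Sox2* peak nor the peak closest to *Sox9* had a core in this window.
*Sox9*, 239277 bp upstream: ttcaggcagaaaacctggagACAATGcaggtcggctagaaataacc
*Sox9*, 243961 bp downstream: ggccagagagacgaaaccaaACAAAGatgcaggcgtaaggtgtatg
*Sox11*, 170831 bp downstream: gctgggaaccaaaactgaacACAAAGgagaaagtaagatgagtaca
*Sox11*, 317849 bp upstream: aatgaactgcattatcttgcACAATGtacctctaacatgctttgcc

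Complementarity to the capture oligonucleotides was read because a pull-down can recover DNA that the oligonucleotides themselves match. The study used 4 *Paupar* oligonucleotides, named by a number, and 1 for *LacZ*.
*Paupar* 254: ggcttaagtccacccctggattcg
*Paupar* 428: gcctggaactagatcaaggcagag
*Paupar* 2041: ctctcagaaactgcgatacaaaag
*Paupar* 2067: gaggcctagtcaaaatatctccac
*LacZ*: catgattacggattcactggccgtc

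An exact match of at least 10 nt to a *Paupar* oligonucleotide, on either strand, lay in 5 of 15 Sox peaks (33.3%, 15.2 to 58.3), against 24.6% of all peaks. That this percentage equals the one for the SOX core is a coincidence of 700 peaks each, 162 of which had both. The longest matches in Sox peaks were 11 nt, in 3 peaks, and no Sox peak matched the *LacZ* oligonucleotide over more than 8 nt. A *LacZ* match of at least 10 nt lay in only 8 of all 2849 peaks (0.281%). Its absence from 15 Sox peaks therefore does not set them apart. *LacZ* was also a single oligonucleotide, set beside several for *Paupar*. Per the methods, peaks were called against the *LacZ* pull-downs, so DNA captured by that oligonucleotide was selected against in the list. The *LacZ* share therefore cannot serve as a baseline for the *Paupar* matches. The *Paupar* matches are shown in capitals with 20 bp on each side, in the direction of the oligonucleotide.
*Sox2*, 413818 bp upstream, to *Paupar* 2041 (chr3:34134745-34134795, plus strand): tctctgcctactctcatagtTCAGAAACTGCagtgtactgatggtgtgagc
*Sox11*, 137867 bp upstream, to *Paupar* 2041 (chr12:28165458-28165508, plus strand): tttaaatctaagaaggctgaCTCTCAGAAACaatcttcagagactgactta
*Sox9*, 243961 bp downstream, to *Paupar* 2067 (chr11:112886760-112886810, minus strand): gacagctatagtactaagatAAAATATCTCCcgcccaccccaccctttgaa
*Sox11*, 176681 bp downstream, to *Paupar* 254 (chr12:27850524-27850573, minus strand): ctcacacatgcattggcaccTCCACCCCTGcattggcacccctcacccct
*Sox11*, 170831 bp downstream, to *Paupar* 2067 (chr12:27856583-27856632, minus strand): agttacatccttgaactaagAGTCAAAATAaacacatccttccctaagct

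The match at *Sox2* ran into an incomplete copy of the repeat shown above. It lay 339 bp from the midpoint of the peak, which was 925 bp wide. The match at *Sox9* lay 714 bp from the midpoint of a peak of 1460 bp. Downstream of *Sox11* the matches lay 344 bp (width 853 bp) and 135 bp (331 bp) from the midpoint. The match upstream of *Sox11* lay 42 bp from the midpoint (477 bp). The strongest *Sox11* peak was among the 5 with a match, and the peaks beside *Sox9* and downstream of *Sox2* had none, their longest being 9 nt. Wider peaks offer more sequence to match: 33.0% of all peaks wider than 1 kb and 22.7% of the others had a match, against 1 of 6 and 4 of 9 Sox peaks. Whether the matches contributed to these peaks was not tested.

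**Figure D5:**
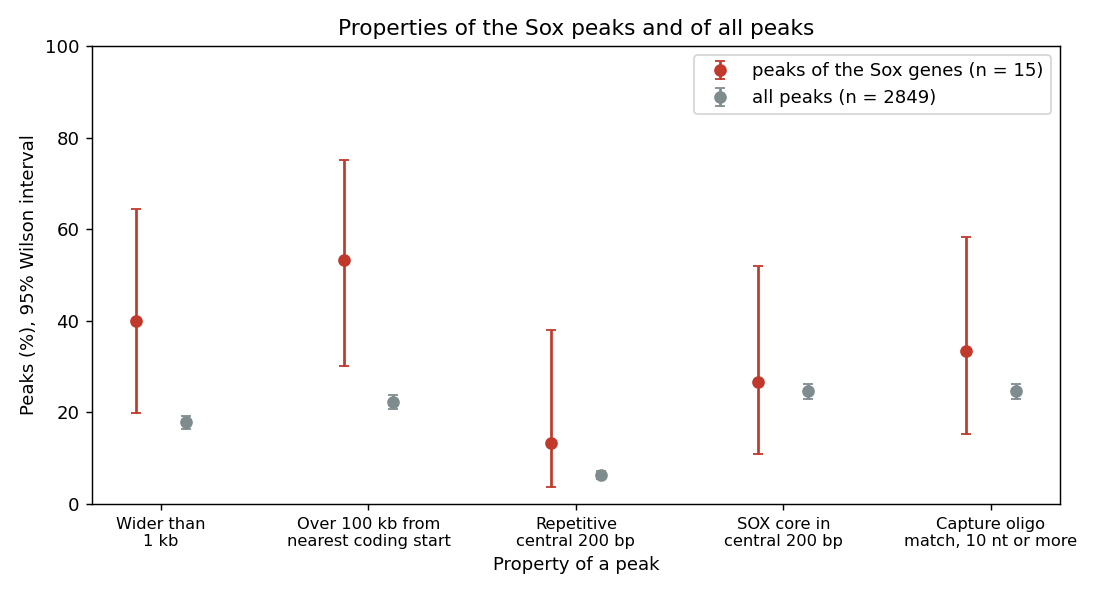
Percent of the 15 Sox peaks (red) and of all 2849 peaks (grey) with each of 5 properties, with 95% Wilson intervals as bars. The intervals of the Sox peaks exclude the value of all peaks for width over 1 kb and for distance over 100 kb from the nearest coding start (53.3% against 22.3%), a measure tied to the length of the domains, and include it for the other 3.

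Of the wider family, the annotation holds *Sry* and 9 other Sox genes, *Sox3*, *Sox7*, *Sox12*, *Sox13*, *Sox14*, *Sox15*, *Sox17*, *Sox18* and *Sox30*, and none of the 10 had a peak in its domain. Their domains were 27.7 to 764 kb long, so none reached 1 Mb, and at the rate over all domains 2.9 peaks would lie in their summed length of 2.48 Mb. Within a group the counts in the domains differed. *Sox4* and *Sox11* had peaks and *Sox12* had none, *Sox5* had a peak and *Sox13* none, and *Sox9* was the only SoxE gene with peaks. These contrasts went with domain length, which was 28.9 kb for *Sox12*, 244.7 kb for *Sox13*, 73.4 kb for *Sox8* and 77.9 kb for *Sox10*. Counted within 1 Mb of the start instead, *Sox12* had 6 peaks, *Sox13* 4, *Sox8* 4 and *Sox10* 8. By that count *Sox4* had 2, *Sox11* 7, *Sox5* 5 and *Sox9* 7, so the contrasts are between domains.

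*Sox1*, a SoxB1 gene of neural progenitors, is not in the annotation used here, so it has no domain and could be counted neither with nor without a peak by the same rule. The study designed primers named for *Sox1*, and a product of 87 bp (chr8:12129327-12129413) lay within a peak at chr8:12128855-12134546. This peak was 5692 bp wide and had a score of 135.15, rank 3 of the 2849 and above each of the 15 scores given for the other Sox genes. Its nearest annotated protein-coding start was that of *A230072I06Rik*, 147118 bp from its midpoint, and its distance from *Sox1* was not measured. Like the upstream *Sox2* peak it was repetitive: in its central 200 bp (chr8:12131601-12131800) 80.6% of positions recurred at a lag of 9 bp, and the 12-mer in capitals occurred 13 times. The forward primer of another pair matched 12 places at or beside this peak.
*Sox1* primer site: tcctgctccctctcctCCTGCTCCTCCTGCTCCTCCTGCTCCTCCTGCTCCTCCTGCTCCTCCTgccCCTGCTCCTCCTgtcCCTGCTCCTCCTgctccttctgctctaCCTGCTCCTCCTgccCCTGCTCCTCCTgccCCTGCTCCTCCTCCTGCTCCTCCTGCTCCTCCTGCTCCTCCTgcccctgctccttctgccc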

How the data were processed

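The 9 genes, the lists and the motif were chosen with earlier results of these data known. Per the labels and the methods of the study, the authors mapped reads of the pull-downs and input to mm9 with Bowtie and called peaks with MACS2. How the calls of the pull-downs were joined is not given in the sources used here. Per the methods, calls with a −log10 q above 5 were kept. The authors deposited 2849 peaks with a score each (5.34 to 305.37), all above that limit. The methods speak of a MACS2 peak score, but the file does not name the column, so scores served only to rank and filter peaks.

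Regulatory domains were built from the NCBIM37 annotation, after 96 of 22380 protein-coding entries were merged into an overlapping entry of the same name and strand. Sequences came from the NCBIM37 genome and the oligonucleotide table of the study. Described here were all 9 genes, the highest-scoring and nearest peak of each, domain-ending neighbours and the other Sox genes by group. Matches were exact, on both strands. No tests were run, as a single list without replicates was available; intervals are Wilson for shares and exact Poisson for rates. The steps were tested on simulated data. Software comprised samtools 1.23.1, Python 3.11.15 and its packages pysam 0.24.0, pandas 2.3.3, numpy 2.4.6, matplotlib 3.10.9 and scipy 1.17.1.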

Additional observations from a re-analysis of the deposited data

How the results depend on the processing

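The counts depended most on how a peak was tied to a gene. Genes with a peak numbered 5 with scores of at least 10 (12.7% of all genes had a peak), any overlap (16.7%), merging within 10 kb (16.5%) or peaks of at most 1 kb (14.3%). They numbered 3 with extension by at most 100 kb (12% of all genes had a peak), with the nearest coding start only (9.98%) and with genes of every biotype as neighbours (11.7%). The 15 peaks became 3, 6 and 7 under those same alternatives and 9 with peaks of at most 1 kb. The rate moved from 2.07 to 3.87 per Mb with genes of every biotype, against 1.30 over all domains. With peaks of at most 1 kb it fell to 1.24 per Mb, against 0.957 over all domains. With the 100 kb limit it was 2.21 against 1.51, with scores of at least 10 it was 1.52 against 0.826, and after merging 1.79 against 1.08. By construction the alternatives that left 3 genes shorten the domains or give a shared peak to a single gene. *Sox2* and *Sox5* had no peak with the 100 kb limit or the nearest start, *Sox4* and *Sox5* none with genes of every biotype. *Sox11* had 3 peaks of score at least 10 and 4 after merging. A capture oligonucleotide match of at least 9 nt was found in 66.7% of Sox peaks (58.5% of all peaks) and one of at least 12 nt in 0.0% (0 of 15, interval up to 20.4; 1.76% of all). A SOX core was found in 53.3% within 400 bp (42.7% of all) and in 6.67% with AACAAAG or AACAATG (8.04%).

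Chosen after seeing the data, domains ended only by neighbours that RefSeq lists as protein-coding (91.6% of genes) gave 19 peaks at 6 genes, with 7 at *Sox11*, 6 at *Sox9* and 1 at *Sox6*, against 17.7% of all genes. All 6 domains of at least 1 Mb then held a peak, against 37.7% of such genes. Adding gene bodies gave 16 peaks at 6 genes (16.9% of all genes had a peak), and keeping a second entry named *Sox4* changed no count. No paired analysis was possible because the list holds no values per library, and for the same reason no replicate could be left out. The nearest-start rule and added gene bodies have no domain length, so they gave no rate.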
